A study of Mus musculus with 8 samples.

Results

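The genes of 3 enzyme families that conjugate drugs, toxins, lipids and hormones were followed in mouse kidney cells: glutathione S-transferases (GST), UDP-glycosyltransferases (UGT) and cytosolic sulfotransferases (SULT). Members were chosen by gene symbol, as GST genes of the alpha, kappa, mu, omega, pi, theta and zeta classes with Mgst1, Mgst2 and Mgst3, UGT genes of families 1, 2, 3 and 8, and SULT genes. A gene also needed 10 or more counts in at least 2 libraries. Among the 55304 genes counted, 68 had such a symbol, and 42 of these were members: 19 of 22 cytosolic GST genes, 2 of 3 microsomal GST genes, 13 of 22 UGT genes and 8 of 21 SULT genes. Of the other 26 genes, 14 had 0 counts in all 8 libraries. The group called cytosolic GST takes in every Gst symbol, also Gstk1, whose kappa class belongs to mitochondria and peroxisomes. The members nearest the limit were Ugt1a9 and Sult6b2, whose second highest counts were 12 and 18, and the nearest genes below it were Sult6b1 at 9 and Gstp3 and Ugt1a6b at 6 each. The members held between 0.0992% and 0.352% of the counts of a library.

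The cells were freshly isolated from mouse kidney and bound DBA, the lectin of Dolichos biflorus, which is commonly used to select collecting duct epithelium. The 4 groups, of 2 libraries each, were wild type (WT) mice given vehicle (DMSO), WT mice given 666-15, mice with autosomal dominant polycystic kidney disease (ADPKD) given vehicle, and ADPKD mice given 666-15. The compound 666-15 is an inhibitor of the transcription factor CREB, and each mouse on it received 5 mg/kg a day. Vehicle and inhibitor alike were given in cycles of 5 dosing days and 2 days without dosing, which began at postnatal day 11 and ran for 3 weeks. Which gene is altered in the ADPKD mice is not stated in the labels, and nothing in them says whether replicate libraries stand for different mice, so p-values measure the spread between libraries, which may be technical, except in the WT inhibitor group, whose libraries differ in sex as given below. RNA was selected with oligo-dT, and the extraction protocol in the labels also speaks of whole kidney.

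GST enzymes join the thiol of glutathione to reactive electrophiles, and some of them act as peroxidases, isomerases or reductases. UGT enzymes of the endoplasmic reticulum transfer a sugar, most often glucuronic acid, to drugs, bilirubin, steroids and bile acids, and SULT enzymes transfer sulfate from the donor PAPS to phenols, catecholamines and steroids. In the kidney the proximal tubule, which secretes organic anions, is known as the main site of many of these enzymes. Transcription factors known to drive members of the families, mostly from work in liver, include NRF2, the aryl hydrocarbon receptor, PXR and HNF4A.

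Total counts per library ranged from 15108793 to 19702638, and all 42 members passed the filter on low counts. Inhibitor-treated WT replicate 2 held 17688 counts of Xist and 0 of Ddx3y, Eif2s3y, Kdm5d and Uty, as a female library would, whereas the other 7 libraries held at most 8 counts of Xist and at least 1776 of Ddx3y. Values without it are given beside the results that use its group, and by gene or as counts where many are named. Principal cell markers of the collecting duct summed to 1056 and 1421 CPM (counts scaled to library size by TMM) with vehicle and 6120.3 and 6185 with inhibitor in WT cells, and to 1909 and 1565 with vehicle and 1985 and 2409 with inhibitor in ADPKD cells. The 13 proximal tubule markers summed to 16925 and 14710.3, 6512 and 6649, 59.1 and 86.3 and 419.8 and 439.8 CPM in the same order, and none of them was at 0 counts in any group. The WT libraries, although labelled as DBA-binding cells, thus held more RNA of the proximal tubule markers than of the principal cell markers. In bulk samples fewer cells of a type and less RNA per cell cannot be told apart.

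Upstream sequence is shown for 4 members whose levels changed and whose upstream sequence held a searched motif. The 250 bases before the RefSeq start (build GRCm38.p6) are written in the direction of transcription, on the plus strand for Gsto1 and Mgst1 and the minus strand for Gsta2 and Sult1d1, with matches to searched motifs in capitals.
Gsto1, chr19:47854723-47854972: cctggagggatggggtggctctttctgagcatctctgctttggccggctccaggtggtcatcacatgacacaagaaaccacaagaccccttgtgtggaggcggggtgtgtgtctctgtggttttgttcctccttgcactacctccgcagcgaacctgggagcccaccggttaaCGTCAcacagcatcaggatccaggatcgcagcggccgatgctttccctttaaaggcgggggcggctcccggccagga
Mgst1, chr6:138140277-138140526: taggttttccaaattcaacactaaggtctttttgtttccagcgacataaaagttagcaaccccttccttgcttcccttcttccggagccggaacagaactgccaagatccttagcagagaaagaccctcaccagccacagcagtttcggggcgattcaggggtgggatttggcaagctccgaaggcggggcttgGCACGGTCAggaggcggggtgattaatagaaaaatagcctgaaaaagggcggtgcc
Gsta2, chr9:78347146-78347395: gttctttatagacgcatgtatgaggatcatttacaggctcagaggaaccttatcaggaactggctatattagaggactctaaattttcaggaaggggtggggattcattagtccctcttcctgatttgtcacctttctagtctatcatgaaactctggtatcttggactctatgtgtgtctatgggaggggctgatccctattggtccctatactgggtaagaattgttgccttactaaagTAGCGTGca
Sult1d1, chr5:87569007-87569256: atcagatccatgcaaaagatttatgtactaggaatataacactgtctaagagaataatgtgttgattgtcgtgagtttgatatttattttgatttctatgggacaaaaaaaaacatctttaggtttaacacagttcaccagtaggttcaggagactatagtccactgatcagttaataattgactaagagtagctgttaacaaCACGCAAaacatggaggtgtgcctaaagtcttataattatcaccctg
Gsto1 rose in ADPKD cells, and its capitals mark TGACG, the short form of the cAMP response element bound by CREB, on the reverse strand at bases -77 to -73 from the start. Of the other members with TGACG, Sult2b1 rose, Gstk1, Gstm5 and Gstz1 fell and Ugt1a9 was not called in ADPKD cells with vehicle. Mgst1 rose in ADPKD cells and with the inhibitor in both genotypes, and its capitals mark the antioxidant response element core TGACNNNGC on the reverse strand. The other members with that core, Gsta3, Gstm5 and Gstm7, fell in ADPKD cells with vehicle. Gsta2 and Sult1d1 fell in ADPKD cells, and their capitals mark the xenobiotic response element core TNGCGTG bound by the aryl hydrocarbon receptor, at bases -9 to -3 in Gsta2 and on the reverse strand at -47 to -41 in Sult1d1.

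The 42 members differed widely in level in vehicle-treated WT cells. Per kilobase of exon, the highest members were Gsta2 at 271 CPM per kb, Sult1d1 at 185, Gstm1 at 163, Ugt3a2 at 119 and Mgst3 at 113. In vehicle-treated ADPKD cells the highest were Gsto1 at 294 CPM per kb, Gstm2 at 64.4, Mgst1 at 54.3 and Gstm1 at 52.5, and Ugt3a2 was at 0.0696. In that group 10 members had under 10 counts in both libraries, against 1 member in vehicle-treated WT cells, 5 in inhibitor-treated WT cells and 6 in inhibitor-treated ADPKD cells. A member with so few counts in 1 group could pass the rule only through other groups, so these numbers follow in part from the rule.

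**Figure D1:**
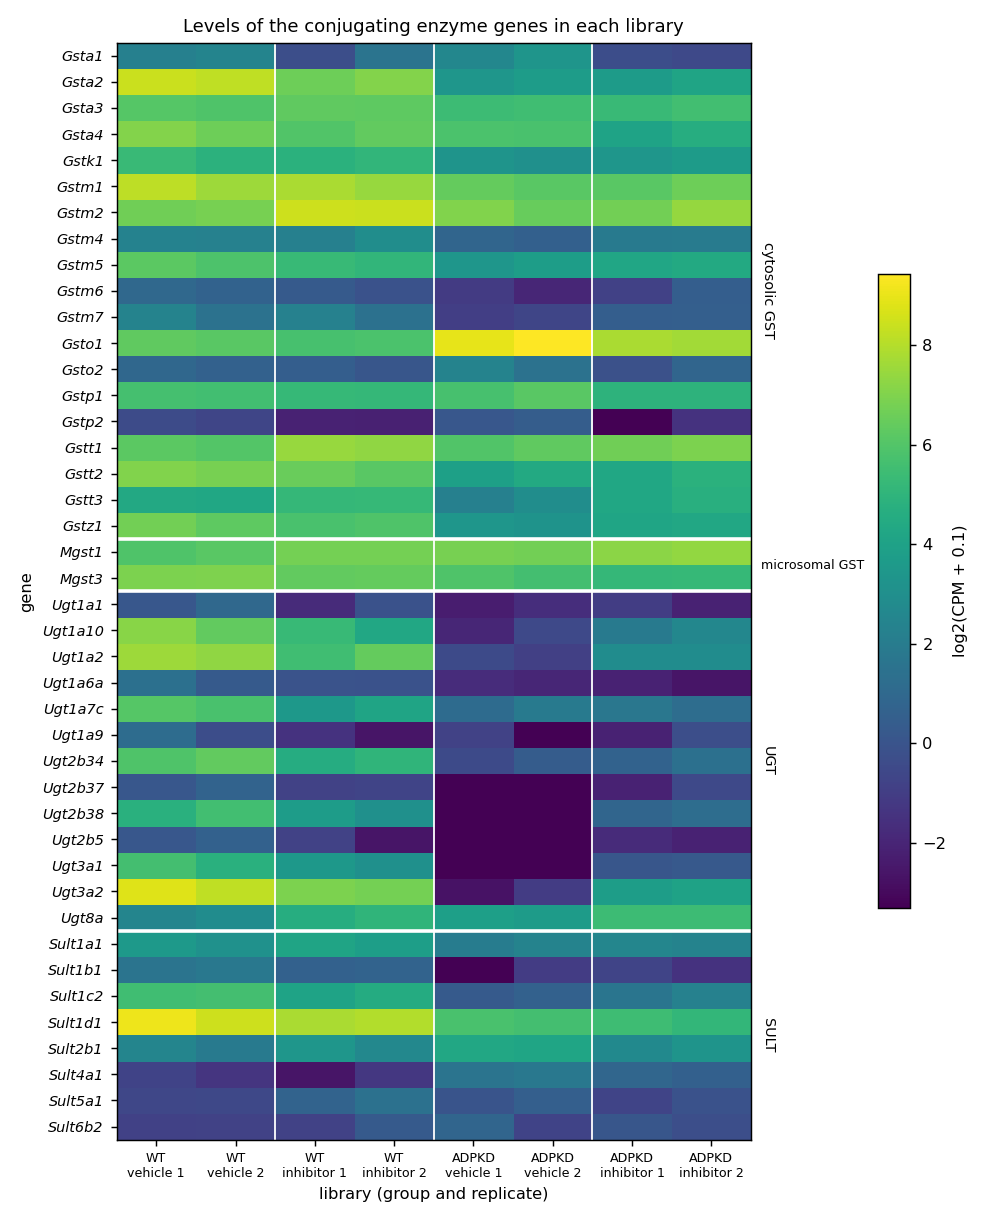
Level of each of the 42 members (rows, by family) in each of the 8 libraries (columns), as log2(CPM + 0.1) with CPM scaled by TMM. UGT rows other than Ugt8a have their highest group mean in WT vehicle, and in the ADPKD vehicle libraries 4 of them are at 0 counts, and Gsto1 is brightest in the ADPKD vehicle libraries.

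Summed over members, UGT transcripts were at 878 ± 163 CPM (mean ± SD, n = 2) with vehicle and 304 ± 19.1 with inhibitor in WT cells, and at 19.0 ± 0.385 with vehicle and 79.2 ± 4.42 with inhibitor in ADPKD cells. The 4 groups did not overlap, and vehicle-treated ADPKD cells held 2.16% of the vehicle-treated WT level. SULT transcripts were at 523 ± 149.7, 285 ± 17.8, 81.9 ± 4.57 and 60.3 ± 4.13 CPM in the same order. Cytosolic GST transcripts were at 1391 ± 189.9, 1334 ± 24.1, 1096 ± 135 and 759 ± 96.5 CPM. The GST total of vehicle-treated ADPKD cells was 78.8% of the vehicle-treated WT total, but its classes moved in different directions. The omega class stood at 770.3% of the vehicle-treated WT level, the pi class at 126%, the mu class at 47.1%, the theta class at 45.8% and the alpha class at 23.6%.

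The make-up of each family changed with these totals. Per kilobase of exon, Gsto1 held 4.18% and 4.62% of cytosolic GST transcripts in WT cells with vehicle and 45.0% and 53.0% in ADPKD cells with vehicle. Gsta2 held 30.6% and 32.6% in the former and 1.57% and 1.76% in the latter. Among UGT transcripts the leading gene was Ugt3a2 in vehicle-treated WT cells, with 40.0% and 34.2%, and Ugt8a in vehicle-treated ADPKD cells, with 70.5% and 59.8%. Ugt1a2 came next in vehicle-treated WT cells, with 24.0% and 26.3%. Of the 50-base words of its longest transcript 63.7% occur in other genes, so the order of Ugt3a2 and Ugt1a2 is uncertain. The share of Gsta2 has the same limit, at 64.2% of its words. Sult1d1 led the SULT family in every library, with 86.6% and 80.2% in WT and 68.2% and 64.7% in ADPKD cells given vehicle.

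**Figure D2:**
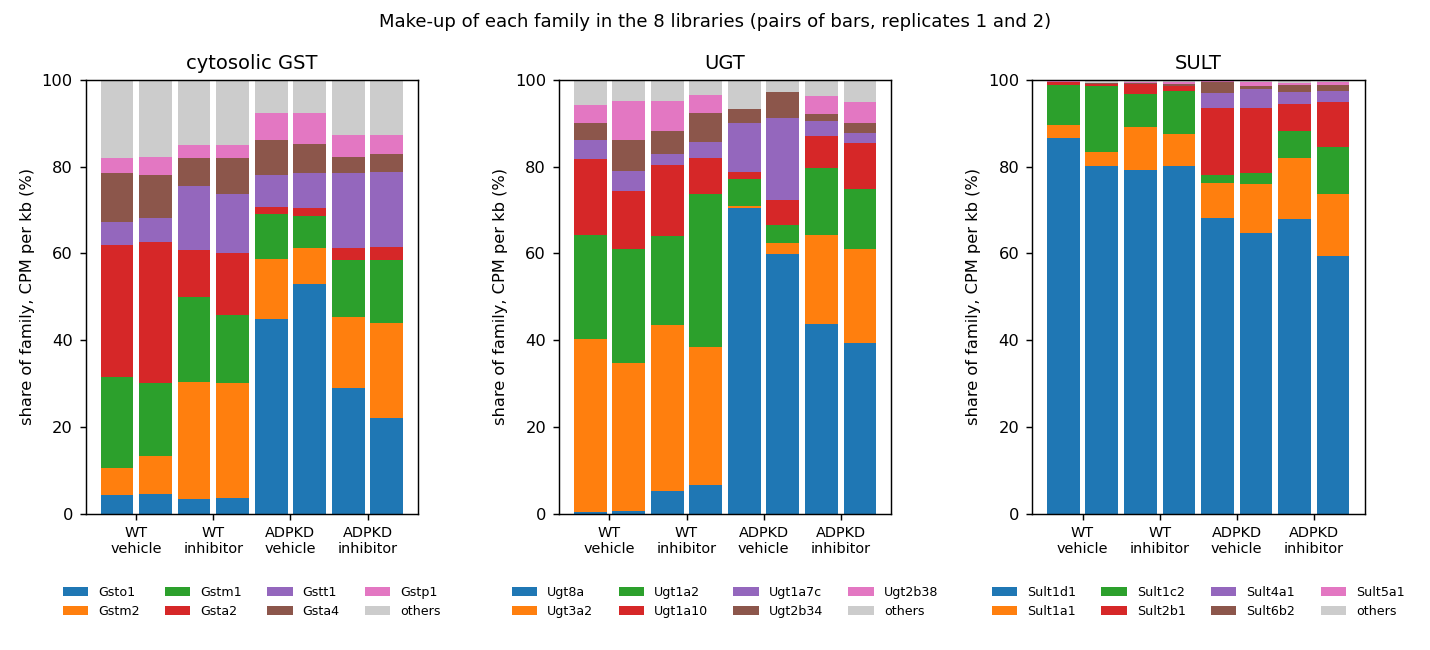
Share of each family's transcripts, in percent of CPM per kb, held by its 7 leading members and the others in each of the 8 libraries (bars, with replicates 1 and 2 of a group side by side). Gsto1 takes the largest share of cytosolic GST transcripts and Ugt8a the largest share of UGT transcripts in the ADPKD vehicle libraries.

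The first comparison set ADPKD against WT cells, both with vehicle. Most conjugating enzymes were lower in ADPKD cells: 28 of 42 members were lower, 6 were higher and 8 did not pass edgeR's quasi-likelihood test at an adjusted p of 0.05 over 17440 genes. Of all genes tested 27.6% were lower and 28.8% were higher (56.4% in either direction). The median log2 fold change of the members was -2.21, against 0.05 over all genes. In vehicle-treated ADPKD cells 10 members had under 10 counts in both libraries, against 1 member in vehicle-treated WT cells. Such members could pass the rule only through other groups, so the counts and the median follow in part from the rule. The later comparisons share this limit. The genes that rose were Gsto1, Gsto2, Mgst1, Ugt8a, Sult2b1 and Sult4a1.

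UGT genes fell furthest, with 11 of 13 lower, 1 higher and 1 not called. Ugt3a2 (chr15:9335550-9370955 on GRCm38), whose human counterpart transfers glucose or xylose in place of glucuronic acid, stood at 445 and 292 CPM with vehicle and 121 and 109 with inhibitor in WT cells, and at 0.0519 and 0.380 with vehicle and 13.8 and 16.2 with inhibitor in ADPKD cells. The groups did not overlap, and ADPKD vehicle libraries were the lowest. Among members with counts in both groups it had the lowest log2 fold change between genotypes (-10.71 ± 0.41, adjusted p = 1.3e-07), a value set by 1 and 7 counts in the ADPKD vehicle libraries (-9.90, adjusted p = 2.2e-07 without replicate 1 and -12.62, adjusted p = 1.6e-07 without replicate 2). Ugt1a2, a member of the UGT1A cluster, stood at 190.1 and 161 CPM with vehicle and 46.4 and 86.7 with inhibitor in WT cells, and at 0.623 and 0.434 with vehicle and 7.35 and 7.33 with inhibitor in ADPKD cells and also fell (-8.35 ± 0.42, adjusted p = 1.1e-06). Ugt1a10, which starts at another first exon of the cluster, was at 141 and 82.8 CPM in WT and 0.156 and 0.597 in ADPKD cells (-8.21 ± 0.68, adjusted p = 0.00011; -7.54, adjusted p = 0.0034 without ADPKD replicate 1 and -9.45, adjusted p = 0.0026 without replicate 2). Ugt1a7c fell by less, from 67.5 and 54.6 to 2.13 and 3.69 CPM (-4.39 ± 0.30, adjusted p = 3.9e-07).

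Ugt3a1, Ugt2b38, Ugt2b37 and Ugt2b5 had 0 counts in both vehicle-treated ADPKD libraries. Genes of the UGT2B group glucuronidate steroids and other lipophilic compounds, and the human counterpart of Ugt3a1 transfers N-acetylglucosamine. Ugt3a1 was at 48.4 and 27.7 CPM and Ugt2b38 at 27.1 and 47.3 CPM in vehicle-treated WT cells, which is at least 478-fold and at least 468-fold higher than a floor of 3 counts over the vehicle-treated ADPKD group. The bounds for Ugt2b37 and Ugt2b5 were 16.3-fold and 15.5-fold, from lower levels in WT cells. Both genes reached 10 counts only in the 2 vehicle-treated WT libraries, so their calls as lower follow in part from the rule. Ugt2b34 fell from 61.0 and 83.4 to 0.623 and 1.19 CPM (-6.31 ± 0.33, adjusted p = 4.7e-08). Of the 50-base words of Ugt2b5, Ugt2b38 and Ugt2b37 41.7%, 37.4% and 18.3% occur in other genes, mostly in one another, so their counts are uncertain. With the 4 genes at their bounds the median log2 fold change of the UGT genes was -4.39, and with the fitted values it was -7.39.

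Ugt8a, which makes galactosylceramide, the precursor of the sulfatides of the kidney, was the exception among UGT genes. It stood at 5.58 and 7.38 CPM with vehicle and 24.5 and 32.8 with inhibitor in WT cells, and at 14.4 and 12.6 with vehicle and 43.0 and 43.2 with inhibitor in ADPKD cells. All 4 groups were apart, and it was the lowest in vehicle-treated WT cells and higher in ADPKD cells (1.06 ± 0.19, adjusted p = 0.00042).

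Of the 19 cytosolic GST genes 12 were lower in vehicle-treated ADPKD cells, 2 were higher and 5 were not called. Gsto1 (chr19:47854970-47864790), an omega class enzyme that acts as a thioltransferase and reduces dehydroascorbate and methylated arsenic, stood at 79.8 and 72.5 CPM with vehicle and 53.2 and 56.7 with inhibitor in WT cells, and at 500.1 and 691 with vehicle and 222 and 205 with inhibitor in ADPKD cells. Every ADPKD library was above every WT library, and the vehicle-treated ADPKD libraries were the highest (ADPKD against WT with vehicle 2.97 ± 0.15, adjusted p = 7.3e-09, a 7.82-fold difference). Gsto2, the adjacent gene of the same class, was at 1.84 and 1.48 CPM in WT and 5.14 and 2.71 in ADPKD cells (1.24 ± 0.45, adjusted p = 0.033). Its call ended without vehicle-treated WT replicate 1 (1.39, adjusted p = 0.091) or 2 (1.07, adjusted p = 0.17), or 1 of the ADPKD vehicle group (0.70, adjusted p = 0.30). DESeq2 did not call it either (1.20, adjusted p = 0.096).

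Alpha class GST genes, which conjugate products of lipid peroxidation and bind hydrophobic ligands, were not alike. Gsta2 stood at 339.7 and 297 CPM with vehicle and 98.6 and 132 with inhibitor in WT cells, and at 10.2 and 13.4 with vehicle and 12.7 and 17.3 with inhibitor in ADPKD cells, so that both ADPKD groups were far below both WT groups (-4.76 ± 0.21, adjusted p = 1.6e-08). Gsta4, which conjugates 4-hydroxynonenal, fell by less, from 135 and 98.4 to 55.6 and 54.2 CPM (-1.09 ± 0.20, adjusted p = 0.0011), and Gsta3 by less again, from 66.5 and 59.8 to 43.1 and 45.6 CPM (-0.51 ± 0.12, adjusted p = 0.0025). Gsta1 was low in every library and was not called (0.66 ± 0.44, adjusted p = 0.22). Of the 50-base words of the longest Gsta2 transcript 64.2% occur in other genes, and of Gsta1 89.7%, so reads of these copies may have been split or dropped in counting. Gsta1 and Gsta2 counts are therefore uncertain.

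Gstz1, which isomerises maleylacetoacetate in tyrosine breakdown, was at 107 and 75.9 CPM in WT and 10.2 and 9.17 in ADPKD cells (-3.23 ± 0.17, adjusted p = 6.7e-09). Gstt2 (-2.69, from 128 and 111 to 15.3 and 21.8 CPM), Gstm5 (-2.47, from 73.2 and 59.3 to 10.3 and 13.7), Gstk1 of mitochondria and peroxisomes (-1.96, from 39.9 and 29.1 to 9.49 and 8.31), Gstt3 (-1.71), Gstm4 (-1.65) and Gstm1 (-1.64) also fell, on the log2 scale, with adjusted p between 7.2e-08 and 0.00097. Close neighbours of genes that fell did not pass: Gstm2 had a log2 fold change of 0.02 ± 0.24 (adjusted p = 0.96) and Gstt1 of 0.03 ± 0.14 (adjusted p = 0.88). Gstp1, the pi class enzyme, was at 51.2 and 47.8 CPM in WT and 53.5 and 70.7 in ADPKD cells (0.32 ± 0.14, adjusted p = 0.059). The longest Gstp1 transcript shares 62.3% of its 50-base words with Gstp2.

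The microsomal enzymes moved apart. Mgst1, a membrane-bound transferase and peroxidase, was at 60.7 and 71.5 CPM in WT and 112 and 107 in ADPKD cells (0.73 ± 0.11, adjusted p = 7.9e-05). Mgst3 was at 123 and 126 and 59.9 and 48.5 CPM (-1.20 ± 0.12, adjusted p = 1.6e-06). The groups did not overlap for either gene.

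Of the 8 SULT genes 4 were lower, 2 were higher and 2 were not called. Sult1d1, which in mice sulfates catecholamines, stood at 561 and 350.2 CPM with vehicle and 225 and 249 with inhibitor in WT cells, and at 54.8 and 48.5 with vehicle and 44.2 and 34.5 with inhibitor in ADPKD cells. Every ADPKD library was below every WT library (-3.14 ± 0.23, adjusted p = 9.5e-06). Sult1c2 fell from 45.4 and 49.7 to 1.14 and 1.47 CPM (-5.18 ± 0.26, adjusted p = 4.4e-09), and Sult1a1, the phenol sulfotransferase, from 11.9 and 8.56 to 3.94 and 5.10 CPM (-1.18 ± 0.25, adjusted p = 0.0012). Sult2b1, which sulfates cholesterol and other sterols, rose from 5.58 and 3.78 to 19.8 and 18.1 CPM (2.01 ± 0.29, adjusted p = 7.4e-05). Sult4a1, a brain enzyme of unknown substrate, rose from 0.498 and 0.295 to 2.91 and 3.31 CPM (2.93 ± 0.55, adjusted p = 0.00053). Macrophage markers summed to 102 and 76.4 CPM in WT and 241 and 296 in ADPKD cells with vehicle (6 of 8 higher, 1 lower), and stromal markers to 204 and 164 and 365 and 625 (5 of 7 higher, none lower); no marker of either list was at 0 counts in a group, and their part in the members that rose was not tested.

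The 13 proximal tubule markers were all lower in the same comparison, with log2 fold changes from -12.08 to -5.86 and a median of -7.20. Among members with counts in both groups, Ugt3a2, Ugt1a2, Ugt1a10 and Ugt2b34 lay within that range, and Sult1c2, Gsta2, Ugt1a7c, Gstz1 and Sult1d1 lay above it. Markers of other cell types were lower too: 6 of 7 for the thick ascending limb (median -3.60), 8 of 9 for intercalated cells (-1.42) and 5 of 5 for podocytes (-1.76). Of 7 distal convoluted and connecting tubule markers 5 were lower and 1 higher (-2.74). Of 9 tested principal cell markers 2 were lower and 5 higher (0.59), and of 7 endothelial markers 1 was lower and 1 higher. The part of these markers in the members' values was not tested. The calls of Ugt1a1 and Ugt1a6a each ended on leaving out 1 library. That of Ugt1a1 ended without vehicle-treated WT replicate 2 (log2 fold change -2.61) or vehicle-treated ADPKD replicate 1 (-2.69). That of Ugt1a6a ended without vehicle-treated WT replicate 1 (-2.57). UGT1A genes share their last exons, and 50-base words of these genes occur in other genes at between 38.9% and 69.3%, so their counts are not independent of each other.

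**Figure D3:**
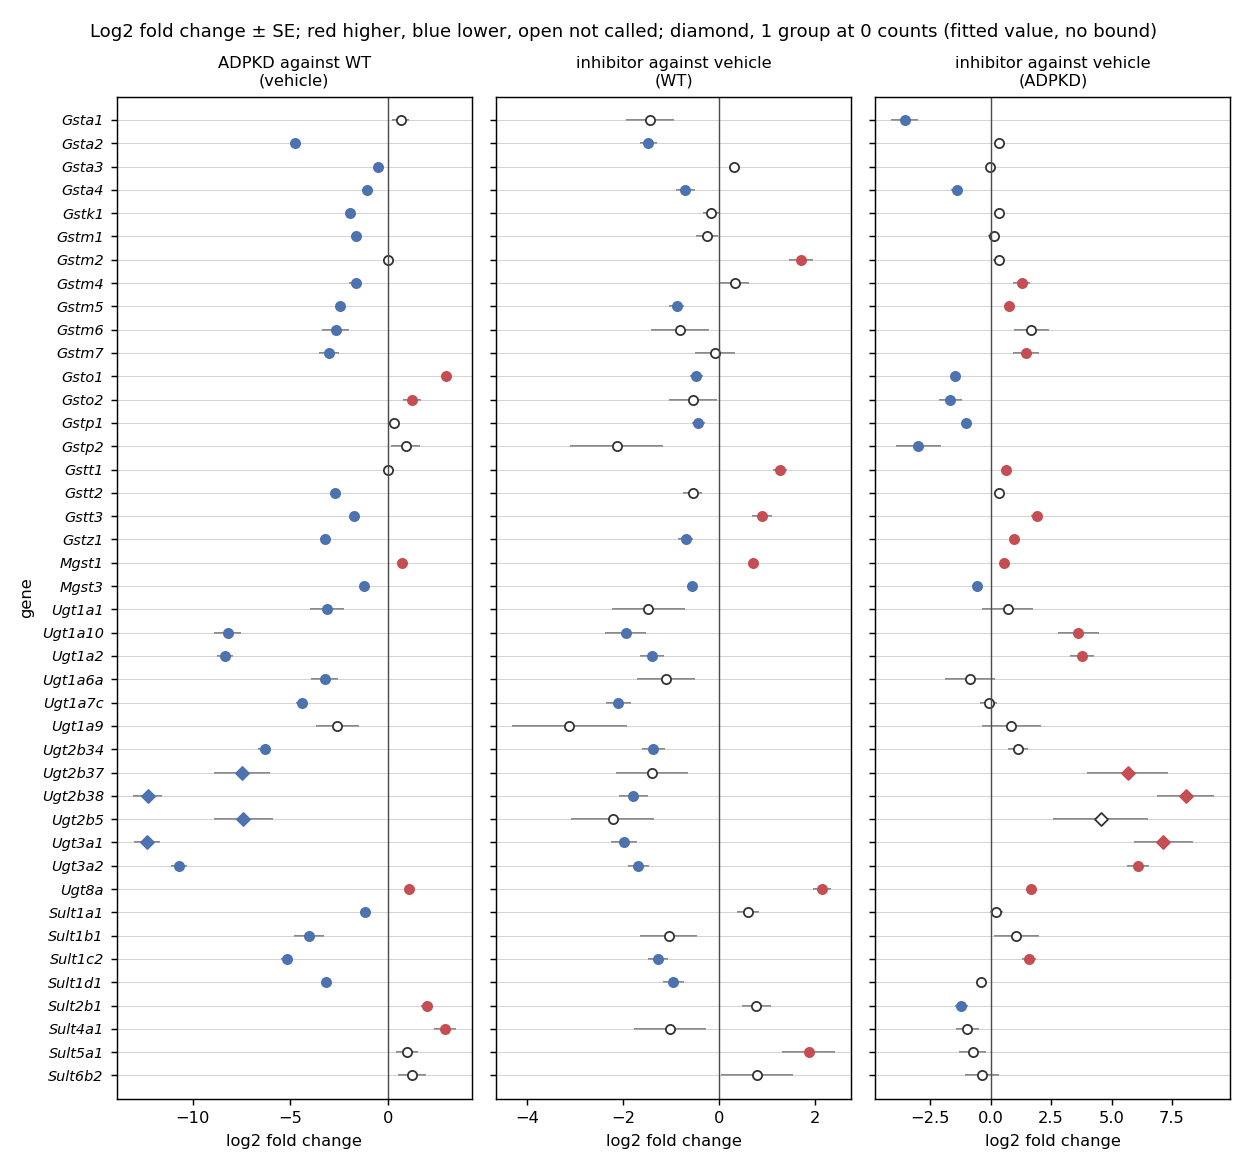
Log2 fold change ± SE of each of the 42 members in 3 comparisons (panels with their own x axes); red points passed as higher and blue points as lower, open points did not pass, and diamonds had 1 group at 0 counts. In ADPKD against WT with vehicle 28 of 42 points are blue and Gsto1 and Sult4a1 lie furthest to the right.

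The second comparison asked what the inhibitor changed in WT cells. Of 42 members 16 were lower with the inhibitor, 6 were higher and 20 were not called, beside 11.6% lower, 13.9% higher and 25.5% called in all among the genes tested. The median log2 fold change was -0.76 over the members and -0.01 over all genes. The genes that rose were Ugt8a, Gstm2, Gstt1, Gstt3, Mgst1 and Sult5a1. Called with a fold of at least 2, 13 members remained in place of 22. Without replicate 2 of the WT inhibitor group, the female library, 13 were lower and 6 higher.

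UGT genes fell in 7 of 13 cases and rose in 1. Ugt3a2 (-1.68 ± 0.22, adjusted p = 0.00087), Ugt1a2 (-1.40 ± 0.26, adjusted p = 0.0059), Ugt1a7c (-2.10 ± 0.26, adjusted p = 0.00017) and Ugt2b34 (-1.36 ± 0.23, adjusted p = 0.0015) fell, and so did Ugt3a1 (-1.97) and Ugt2b38 (-1.78). Without the female library the values were -1.61, adjusted p = 0.030 for Ugt3a2, -1.92, adjusted p = 1.4e-06 for Ugt1a2, -2.48, adjusted p = 9e-05 for Ugt1a7c, -1.63, adjusted p = 0.0015 for Ugt2b34, -1.78, adjusted p = 0.0053 for Ugt3a1 and -1.48, adjusted p = 0.016 for Ugt2b38. Ugt1a10 was called lower (-1.95 ± 0.43, adjusted p = 0.021), but not without that library (-1.57, adjusted p = 0.087) or replicate 1 of the WT vehicle group (-1.51, adjusted p = 0.077), nor with no filter on low counts (adjusted p = 0.10). The 13 proximal tubule markers had a median of -1.24 in this comparison, with 9 called lower and values from -2.23 to -1.07, and of -1.51 with 9 called lower without the female library.

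Ugt8a rose with the inhibitor in WT cells from 5.58 and 7.38 to 24.5 and 32.8 CPM, a 4.44-fold difference (2.15 ± 0.19, adjusted p = 5.9e-06; 1.92, adjusted p = 1.3e-05 without the female library). Gstm2, a mu class enzyme, rose from 102 and 112 to 353 and 345 CPM (1.71 ± 0.25, adjusted p = 0.0024; 1.72, adjusted p = 0.042 without the female library). Gstt1, a theta class enzyme that acts on small halogenated compounds, rose from 74.4 and 65.4 to 178 and 159.8 CPM (1.27 ± 0.14, adjusted p = 3.2e-05; 1.34, adjusted p = 9.6e-05 without it). In all 3 genes both inhibitor-treated libraries lay above both vehicle-treated ones. Gstt3 also rose (0.90 ± 0.21, adjusted p = 0.0063), a call that ended without vehicle-treated WT replicate 2 (0.84, adjusted p = 0.055) but not without the female library (0.88, adjusted p = 0.026). All 9 tested principal cell markers were higher in the same comparison, with log2 fold changes from 1.36 to 2.67, and so were 6 of 9 intercalated cell markers and 6 of 8 macrophage markers (9, 5 and 3 without the female library). The part of these markers in the members' values was not tested.

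The neighbours of the genes that rose gave other values. Gstm1 was at 289 and 192 CPM with vehicle and 227 and 177 with inhibitor (-0.25 ± 0.23, adjusted p = 0.48), Gstm5 fell (-0.88 ± 0.16, adjusted p = 0.0012), and Gstt2 was not called (-0.54 ± 0.20, adjusted p = 0.076). Gstt2 was called lower with DESeq2 (adjusted p = 0.011), RLE scaling (0.041), no filter (0.00031), a filter at 5 CPM (0.028) and 2 groups alone (0.027). The same held with the GC or length trend removed (0.046 and 0.038). It was not called with the replicate block (0.10), no robust option (0.061) or a 2-fold minimum. Gsta2 fell to 36.2% of its vehicle level (-1.47 ± 0.18, adjusted p = 0.00016; -1.70, adjusted p = 0.00013 without the female library). Mgst1 rose (0.71 ± 0.11, adjusted p = 0.00038) and Mgst3 fell (-0.56 ± 0.11, adjusted p = 0.0028). Sult1c2 fell (-1.27 ± 0.20, adjusted p = 0.00048). Without the female library the values were -0.09, adjusted p = 0.88 for Gstm1, -0.80, adjusted p = 0.0078 for Gstm5, -0.39, adjusted p = 0.31 for Gstt2, 0.70, adjusted p = 0.00088 for Mgst1, -0.60, adjusted p = 0.0056 for Mgst3 and -1.52, adjusted p = 0.00030 for Sult1c2.

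Several calls in WT cells ended when 1 library was left out. Sult1d1 was called lower (-0.95 ± 0.21, adjusted p = 0.015), but not without inhibitor-treated WT replicate 1 (-0.88, adjusted p = 0.16) or replicate 2 (-1.03, adjusted p = 0.13). Sult5a1, at a low level, was called higher (1.87 ± 0.55, adjusted p = 0.024), but not without the female library (1.47, adjusted p = 0.16) or vehicle-treated WT replicate 1 or 2 (adjusted p = 0.15 and 0.11), nor with DESeq2 (adjusted p = 0.064). Gstz1 was called lower (-0.69 ± 0.15, adjusted p = 0.0052), but not without replicate 1 of the WT vehicle group (-0.43, adjusted p = 0.12); without the female library it was -0.77, adjusted p = 0.012. The small falls of Gsto1 (-0.47 ± 0.14, adjusted p = 0.027) and Gstp1 (-0.43 ± 0.14, adjusted p = 0.038) ended on leaving out either library of either WT group, with adjusted p between 0.051 and 0.21. Both also ended with the length trend removed (adjusted p = 0.060 for Gsto1 and 0.091 for Gstp1). That of Gstp1 also ended without inhibitor-treated ADPKD replicate 1 or 2 (adjusted p = 0.065 for each). That of Gsta4 (-0.70 ± 0.20, adjusted p = 0.028) ended without vehicle-treated WT replicate 1 (-0.46, adjusted p = 0.19), inhibitor-treated WT replicate 1 (-0.52, adjusted p = 0.17), or vehicle-treated ADPKD replicate 1 or 2 (adjusted p = 0.055 for each), and was -0.92, adjusted p = 0.025 without the female library.

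The third comparison set inhibitor against vehicle in ADPKD cells. Of 42 members 15 were higher with the inhibitor, 8 were lower and 19 were not called. Over all genes tested 22.3% were higher and 19.1% lower (41.4% called in all). The median log2 fold change was 0.45 over the members and 0.02 over all genes. UGT genes gave 7 of the 15 that rose, with none of the 13 lower.

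Ugt3a2 rose from 0.0519 and 0.380 CPM to 13.8 and 16.2 (6.09 ± 0.47, adjusted p = 3.8e-05; 5.28, adjusted p = 9.2e-05 without vehicle replicate 1 and 7.998, adjusted p = 4.6e-05 without vehicle replicate 2), and Ugt1a2 from 0.623 and 0.434 to 7.35 and 7.33 CPM (3.77 ± 0.49, adjusted p = 0.00065). Both stayed far below WT cells given the same inhibitor, Ugt3a2 at 15.0 against 115 CPM on average. Ugt2b38 and Ugt3a1, at 0 counts with vehicle, were at 1.69 and 2.24 and 0.976 and 1.09 CPM with the inhibitor, at least 24.7-fold and at least 13.0-fold higher than the floor of 3 counts over the group. Ugt8a rose from 14.4 and 12.6 to 43.0 and 43.2 CPM (1.67 ± 0.18, adjusted p = 2e-05). With the 4 genes at their bounds the median log2 fold change of the UGT genes was 1.67, and with the fitted values it was 3.63. In contrast to these, Ugt1a7c was not called (-0.07 ± 0.35, adjusted p = 0.89). Ugt2b34 did not pass either (1.14 ± 0.43, adjusted p = 0.055), but its call depended on the setting. It was called higher with DESeq2 (adjusted p = 0.012), the replicate block (0.0045) and no filter on low counts (0.00075). In the other settings that kept all libraries of both ADPKD and WT cells, and with the 2 groups alone, it was not called.

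Cytosolic GST genes divided evenly, with 6 higher, 6 lower and 7 not called. Gsto1 fell from 500.1 and 691 to 222 and 205 CPM, a 2.79-fold difference (-1.48 ± 0.14, adjusted p = 1e-05). It stayed above WT cells given the inhibitor (1.96 ± 0.14, adjusted p = 6.3e-07 for ADPKD against WT with inhibitor, and 2.01, adjusted p = 4.8e-05 without the female library). Gstp1 fell from 53.5 and 70.7 to 30.2 and 30.7 CPM (-1.03 ± 0.14, adjusted p = 0.00011), Gsta4 from 55.6 and 54.2 to 16.9 and 24.5 CPM (-1.41 ± 0.21, adjusted p = 0.00060), and Gsta1 from 5.86 and 9.88 to 0.716 and 0.611 CPM (-3.55 ± 0.56, adjusted p = 0.00045). Endothelial markers summed to 984 and 1230.2 CPM with vehicle and 343 and 281 with inhibitor in ADPKD cells, and podocyte markers to 183 and 195 and 94.4 and 78.3. Their part in these falls was not tested.

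Genes that rose were Gstt3, from 4.57 and 7.55 to 19.3 and 26.3 CPM (1.92 ± 0.23, adjusted p = 4.4e-05), Gstz1 (0.96 ± 0.17, adjusted p = 0.00080), Gstm5 (0.74 ± 0.17, adjusted p = 0.0039) and Gstt1 (0.63 ± 0.14, adjusted p = 0.0031). Gsta2 was at 10.2 and 13.4 CPM with vehicle and 12.7 and 17.3 with inhibitor and was not called (0.35 ± 0.20, adjusted p = 0.20). Mgst1 rose (0.54 ± 0.11, adjusted p = 0.0015) and Mgst3 fell (-0.54 ± 0.12, adjusted p = 0.0026), a call that ended with the length trend removed (adjusted p = 0.062). Of the SULT genes Sult1c2 rose from 1.14 and 1.47 to 3.06 and 4.75 CPM (1.58 ± 0.30, adjusted p = 0.0010) and Sult2b1 fell from 19.8 and 18.1 to 6.64 and 9.77 CPM (-1.21 ± 0.28, adjusted p = 0.0045), while Sult1d1 was not called (-0.39 ± 0.23, adjusted p = 0.21). The call of Sult2b1 ended without inhibitor-treated ADPKD replicate 1 (-0.94, adjusted p = 0.068).

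The proximal tubule markers rose in 10 of 13 cases with the inhibitor in ADPKD cells, with log2 fold changes from 0.38 to 6.72 and a median of 1.61, and their part in the rise of UGT genes was not tested. Other calls in ADPKD cells ended when 1 library was left out. Ugt1a10 rose (3.63 ± 0.83, adjusted p = 0.016), but was not called without vehicle-treated ADPKD replicate 1 (2.96, adjusted p = 0.12), vehicle-treated ADPKD replicate 2 (4.87, adjusted p = 0.060) or replicate 2 of the inhibitor group (3.25, adjusted p = 0.070), nor with no filter on low counts (adjusted p = 0.079). Ugt2b37 was at 0.130 and 0.611 CPM with the inhibitor (11 counts in all), at least 4.66-fold above the floor, and was not called without either ADPKD vehicle library or replicate 2 of the ADPKD inhibitor group (adjusted p = 0.065, 0.056 and 0.16). Gstm4 (1.29 ± 0.34, adjusted p = 0.0092) was not called without inhibitor-treated ADPKD replicate 2 (adjusted p = 0.052). Gstm7 (1.46 ± 0.54, adjusted p = 0.044) was not called without any 1 of the 4 ADPKD libraries (adjusted p from 0.076 to 0.16), nor with DESeq2 or the 2 groups alone (adjusted p = 0.066 and 0.070). Gsto2 (-1.66 ± 0.48, adjusted p = 0.014) lost its call without replicate 1 of either ADPKD group (adjusted p = 0.14 and 0.14) and was -2.31, adjusted p = 0.020 without inhibitor replicate 2. Gstp2 (-3.00 ± 0.93, adjusted p = 0.021) lost it without replicate 2 of the ADPKD vehicle group or replicate 1 of the ADPKD inhibitor group (adjusted p = 0.076 and 0.16), and was -7.27, adjusted p = 0.016 without inhibitor replicate 2.

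**Figure D4:**
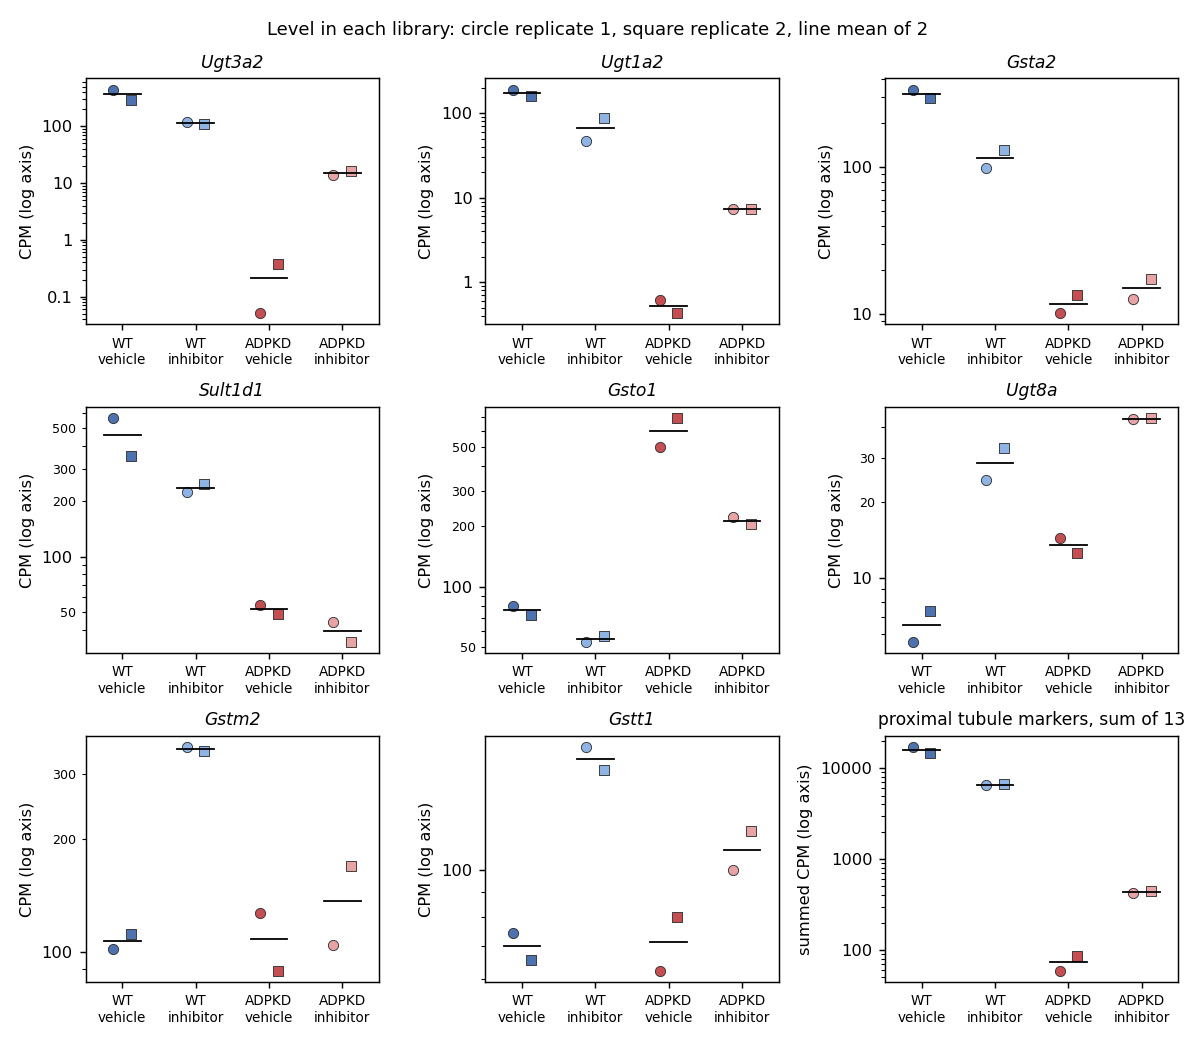
Level in CPM of 8 members, and summed CPM of 13 proximal tubule markers, in each library on log axes; circles are replicate 1, squares replicate 2 and lines the mean of 2. Ugt3a2, Ugt1a2 and the marker sum share the order WT vehicle, WT inhibitor, ADPKD inhibitor, ADPKD vehicle, whereas Gsto1 is highest in ADPKD vehicle and Ugt8a in ADPKD inhibitor libraries.

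The inhibitor response was then compared between genotypes by the interaction term. It passed for 21 of 42 members, 15 with a more positive response in ADPKD cells and 6 with a more negative one, beside 13.6%, 13.0% and, in either direction, 26.6% of all genes tested. The median was 0.73 over the members and -0.02 over all genes. UGT genes gave 9 of the 15, among them Ugt3a2 (7.77 ± 0.52, adjusted p = 4e-05), Ugt1a2 (5.17 ± 0.55, adjusted p = 0.00048) and Ugt2b34 (2.50 ± 0.49, adjusted p = 0.0037). Gsta2 (1.82 ± 0.27, adjusted p = 0.00084), Gstz1 (1.65 ± 0.23, adjusted p = 0.00028), Gstm5 (1.63 ± 0.23, adjusted p = 0.00033) and Sult1c2 (2.85 ± 0.36, adjusted p = 0.00013) also responded more positively in ADPKD cells. Gsto1 (-1.01 ± 0.19, adjusted p = 0.0027) and Sult2b1 (-1.99 ± 0.41, adjusted p = 0.0038) responded more negatively. Without the female library 14 were more positive and 4 more negative, and the values were 7.73, adjusted p = 0.0016 for Ugt3a2, 5.71, adjusted p = 5.6e-08 for Ugt1a2, 2.79, adjusted p = 0.0017 for Ugt2b34, 2.06, adjusted p = 0.00023 for Gsta2, 1.74, adjusted p = 0.00034 for Gstz1, 1.57, adjusted p = 0.00046 for Gstm5, 3.12, adjusted p = 2.9e-05 for Sult1c2, -0.94, adjusted p = 0.015 for Gsto1 and -2.30, adjusted p = 0.00047 for Sult2b1. The Ugt3a2 interaction was 6.96, adjusted p = 5.1e-05 without replicate 1 of the ADPKD vehicle group and 9.68, adjusted p = 2.7e-05 without replicate 2. Ugt8a and Mgst1 rose in both genotypes, and their interactions were -0.48 ± 0.26, adjusted p = 0.20 for Ugt8a and -0.17 ± 0.15, adjusted p = 0.46 for Mgst1, neither of which passed (adjusted p = 0.56 and 0.56 without the female library). Proximal tubule markers had a median interaction of 3.30, with 11 of 13 called, all of them positive (10 of 13 without the female library).

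These comparisons share groups, so their values are set side by side only as a description. Gstm5, Gstz1, Sult1c2, Ugt1a10, Ugt1a2, Ugt2b38, Ugt3a1 and Ugt3a2, 8 members, were called lower in ADPKD cells with vehicle, higher with inhibitor in ADPKD cells and lower with inhibitor in WT cells. Mgst1 and Ugt8a were called higher in all 3, and Gsta4 and Mgst3 lower in all 3. Gsto1 was called higher in ADPKD cells and lower with inhibitor in both genotypes. Gstt1 and Gstp1 were not called between genotypes with vehicle and moved with the inhibitor in both genotypes, Gstt1 up and Gstp1 down. With inhibitor in both genotypes Gstt1 was called lower in ADPKD cells (-0.62 ± 0.14, adjusted p = 0.0026) and Gstp1 was not called. Sult6b2 and Ugt1a9 were called in none of the 3.

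With inhibitor in both genotypes, 26 of 42 members were lower in ADPKD than in WT cells, 4 were higher and 12 were not called, beside 24.5% lower, 21.8% higher and 46.3% called among all genes. Without the female library 24 were lower and 4 higher. The median was -1.30 over the members and -0.03 over all genes. Markers were lower, with none higher, in 8 of 9 cases for principal and for intercalated cells, 6 of 7 for endothelium, 5 of 5 for podocytes and 6 of 7 for the thick ascending limb. Their medians were -1.28, -1.26, -1.54, -3.27 and -2.21, and without the female library -1.38, -1.18, -1.86, -3.64 and -2.11. Of 7 distal convoluted and connecting tubule markers 4 were lower and 2 higher. The part of these lists was not tested. Ugt2b34 (-3.81 ± 0.31, adjusted p = 3.3e-06), Ugt1a2 (-3.18 ± 0.30, adjusted p = 8.5e-05) and Gsta2 (-2.94 ± 0.20, adjusted p = 1.1e-06) fell, as did Sult1d1 (-2.59 ± 0.23, adjusted p = 5.3e-05). Without the female library the values were -3.54, adjusted p = 7.6e-06 for Ugt2b34, -2.65, adjusted p = 2.6e-08 for Ugt1a2, -2.71, adjusted p = 1.7e-06 for Gsta2 and -2.50, adjusted p = 0.0052 for Sult1d1. The 4 higher members were Gsto1, Mgst1 (0.56 ± 0.11, adjusted p = 0.00092), Sult4a1 (2.99 ± 0.66, adjusted p = 0.0024) and Ugt8a. Sult4a1 was at 2.30, adjusted p = 0.020 without inhibitor-treated WT replicate 1 and at 4.45, adjusted p = 0.0021 without the female library, where Mgst1 was at 0.57, adjusted p = 0.0021 and Ugt8a at 0.82, adjusted p = 0.0037. Macrophage markers were higher in 6 of 8 cases and stromal markers in 4 of 7 (6 and 2 without the female library), and their part in these values was not tested. Ugt8a (0.59 ± 0.17, adjusted p = 0.015) lost its call without inhibitor-treated WT replicate 1 (0.39, adjusted p = 0.11) and without either ADPKD library (adjusted p = 0.073 and 0.077) as well as after removal of the GC trend (adjusted p = 0.27). Proximal tubule markers were lower in all 13 cases, with a median of -3.92 (12 of 13 and -3.96 without the female library).

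Lists of the pathway, which also hold enzymes that cleave glucuronides or sulfates, were used to count genes that feed, export or regulate conjugation. Their counts stand beside the 28.8% higher and 27.6% lower of all genes in ADPKD cells with vehicle, 22.3% and 19.1% with inhibitor in ADPKD cells, and 13.9% and 11.6% with inhibitor in WT cells. Without the female library the counts in WT cells moved for glutathione synthesis and turnover, to 7 lower, and for export of conjugates, to 5 lower, and not for the other 5 lists. Of 15 tested genes of the NRF2 pathway, 11 were higher and 1 lower in ADPKD cells with vehicle, with a median log2 fold change of 0.47. Txnrd1, a thioredoxin reductase, was higher (1.32 ± 0.12, adjusted p = 1.6e-06), and so was Cbr3, a carbonyl reductase (1.72 ± 0.19, adjusted p = 6.2e-06). With inhibitor in ADPKD cells 12 of the 15 were lower and none higher, among them Osgin1 (-2.91 ± 0.11, adjusted p = 1.8e-08), Nqo1, a quinone reductase (-1.61 ± 0.18, adjusted p = 2.8e-05), and Gclm, a subunit of the enzyme that begins glutathione synthesis (-1.47 ± 0.11, adjusted p = 1.4e-06). In WT cells 9 were lower and 3 higher with the inhibitor.

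Of 16 genes of glutathione synthesis and turnover, 11 were lower and 2 higher in ADPKD cells with vehicle. Those with the smallest p were the brush border enzymes Anpep (-2.94 ± 0.13, adjusted p = 1.8e-09), Ggt1 (-5.29 ± 0.21, adjusted p = 8.6e-09) and Dpep1 (-4.33 ± 0.22, adjusted p = 3.5e-08), which break down glutathione and its conjugates. With inhibitor the list gave 5 higher and 5 lower in ADPKD cells, and 9 lower and none higher in WT cells. Of 11 tested genes of sulfate donor supply 6 were lower and 1 was higher in ADPKD cells, including the sulfate transporter Slc13a1 (-5.52 ± 0.16, adjusted p = 3.1e-11) and the PAPS synthase Papss2 (-3.32 ± 0.17, adjusted p = 1.3e-08). With inhibitor 6 of these were lower and 1 higher in WT cells, and 5 were higher and 2 lower in ADPKD cells. The 7 genes of UDP-glucuronate supply gave 3 higher and 3 lower between genotypes with vehicle. Ugdh, the enzyme that makes UDP-glucuronate, was higher (1.04 ± 0.10, adjusted p = 1e-06). With inhibitor 1 was higher and 2 were lower in ADPKD cells, and 1 was lower in WT cells.

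Of 12 tested genes listed for export of conjugates 7 were lower and 3 higher in ADPKD cells with vehicle. The list also holds organic anion uptake transporters, which are among the proximal tubule markers too. Abcc2, the apical conjugate pump of the proximal tubule, fell (-5.24 ± 0.13, adjusted p = 2.2e-11), as did Abcg2 (-2.89 ± 0.12, adjusted p = 5.1e-10), and Abcc1, a basolateral pump for glutathione conjugates, rose (1.39 ± 0.13, adjusted p = 1.3e-06). With inhibitor 4 were higher and 2 lower in ADPKD cells, and 2 higher and 6 lower in WT cells. Of 17 tested regulators 10 were lower and 4 higher in ADPKD cells. Hnf4a (-6.20 ± 0.22, adjusted p = 8.7e-10) and Nr1i2, the gene of PXR (-4.48 ± 0.42, adjusted p = 1.2e-06), fell. Nfe2l2, the gene of NRF2, rose (0.47 ± 0.11, adjusted p = 0.0029), and Ahr was not called (0.11 ± 0.13, adjusted p = 0.53). With inhibitor in ADPKD cells Ahr (1.11 ± 0.13, adjusted p = 4.3e-05) and Hnf4a (1.20 ± 0.25, adjusted p = 0.0023) rose, and Keap1, which holds NRF2 in check, fell (-1.28 ± 0.18, adjusted p = 0.00011). In all, the inhibitor gave 3 higher and 4 lower regulators in ADPKD cells and 3 higher and 7 lower in WT cells, where Hnf4a fell (-1.08 ± 0.16, adjusted p = 0.00047; -1.25, adjusted p = 0.00045 without the female library). Hnf4a is also one of the proximal tubule markers. The list of other conjugating enzymes also holds genes of other functions, such as chloride channel proteins. Of its 20 tested genes 7 were higher and 8 lower in ADPKD cells, beside 28.8% and 27.6% of all genes. The glycine conjugation genes Glyat (-6.63 ± 0.14, adjusted p = 4.2e-12) and Acsm2 (-9.31 ± 0.19, adjusted p = 4.2e-12) fell with the UGT genes. With inhibitor 8 were higher and 5 lower in ADPKD cells, and 3 higher and 7 lower in WT cells.

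Motifs were searched as exact letters on both strands of the 250 bases before and 50 bases after the RefSeq starts of 38 members, since Gsta4, Gstt2, Sult4a1 and Ugt3a2 had no entry. The antioxidant response element core TGACNNNGC was found in 4 of 38 members (10.5%), Gsta3, Gstm5, Gstm7 and Mgst1, against 14% of 27025 genes. The short cAMP response element TGACG was found in 6 (15.8%), Gsto1, Gstk1, Gstm5, Gstz1, Sult2b1 and Ugt1a9, against 23% of genes, and its full palindrome in none, against 2.03%. The xenobiotic response element core TNGCGTG was found in Gsta2 and Sult1d1 (5.26%), against 5.84% of genes. TGACG is part of the full palindrome, and no match of one motif overlapped a match of another. These are matches of letters in one window and describe no binding.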

How the data were processed

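RNA sequencing was analysed from 8 libraries in 4 groups of 2. The authors deposited raw counts per gene for 55304 genes. Per the submitters' processing notes, reads were handled with HISAT2 2.1.0, featureCounts 1.6.0, DESeq2 and mm10; which annotation was used, whether counting used strand and how reads with several matches were counted are not given in the sources used here. Vehicle columns were matched to samples by elimination. Rows of mitochondrially encoded genes held 0 counts and were not used.

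Counts were tested in R 4.3.3 with edgeR 4.0.16: filterByExpr (minimum count 10, minimum total 15, leaving 17440 genes), TMM scaling and 1 robust quasi-likelihood fit of the 4 groups (4 residual degrees of freedom, common biological coefficient of variation 0.138). Tests were two-sided, with Benjamini-Hochberg adjustment over all genes tested and a threshold of 0.05. CPM per kb used the exon bases of GENCODE M21, which matched 97% of symbols and gave the positions on GRCm38; promoters came from RefSeq. The floor of 3 counts covers counting error only. The fit was also run on counts simulated from its own estimates of level and spread. That run checked the code only, and none of its outcomes is used here. Members may all be named; full values are given for called members that average 5 CPM or more in the groups compared and the 3 highest per length in each family, and those of Gsta1, Gsto2, Sult4a1 and Ugt2b37 were added after they had been seen. From the pathway lists the text names regulators and genes among the 4 with the smallest p, and from the marker lists only sums and ranges. One listed regulator is not reported here by name. Members and lists were chosen with earlier results of these data known. The labels do not say whether replicate numbers pair libraries. Differences between replicates 1 and 2 correlated at -0.0431 to 0.0677 between groups over 9543 genes, which does not settle whether libraries were paired. Alternatives were RLE scaling, no filter, a filter at 5 CPM, no robust option, the replicate block, 2 groups alone, DESeq2 1.42.0, a 2-fold minimum, GC and length trends removed by lowess (span 0.3), and each library left out in turn. Figures were drawn with matplotlib 3.10.9.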

Additional observations from a re-analysis of the deposited data

Results flagged for a closer look

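The response to the inhibitor differed between ADPKD and WT cells, by the interaction term of edgeR's quasi-likelihood fit, for 21 members. Values are the log2 response in ADPKD cells minus that in WT cells. More positive in ADPKD cells were Sult1c2 at 2.85, Ugt2b34 at 2.50, Ugt1a7c at 2.03, Gsta2 at 1.82, Gstz1 at 1.65, Gstm5 at 1.63, Gstt3 at 1.01 and Gstt2 at 0.90. So were Ugt3a2 at 7.77, Ugt1a10 at 5.58 and Ugt1a2 at 5.17. Fitted values of genes at 0 counts in vehicle-treated ADPKD cells depend on the prior count and are no bounds: Ugt2b38 at 9.84, Ugt3a1 at 9.11, Ugt2b37 at 7.07 and Ugt2b5 at 6.76. More negative in ADPKD cells were Sult5a1 at -2.61, Sult2b1 at -1.99, Gstm2 at -1.37, Gsto1 at -1.01, Gstt1 at -0.65 and Gstp1 at -0.60.

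Of these 21 calls 12 held in all alternatives other than the 2-fold minimum: Gsta2, Gstm5, Gsto1, Gstz1, Sult1c2, Sult2b1, Ugt1a10, Ugt1a2, Ugt2b34, Ugt2b38, Ugt3a1 and Ugt3a2. The call of Gstm2 ended without either library of either WT group or vehicle-treated ADPKD replicate 1, at adjusted p from 0.051 to 0.15 and log2 values from -1.42 to -1.08. That of Ugt1a7c ended without inhibitor-treated ADPKD replicate 1 (1.75, adjusted p = 0.054). The calls of Gstp1, Gstt1, Gstt2, Gstt3, Sult5a1, Ugt2b37 and Ugt2b5 also ended on leaving out 1 library, with adjusted p of up to 0.18 for Gstt2, 0.18 for Gstp1, 0.15 for Gstt1 and 0.13 for Gstt3. For Sult5a1, Ugt2b37 and Ugt2b5 they were up to 0.10, 0.12 and 0.13. Other settings ended some of these calls too. With the replicate block adjusted p was 0.056 for Gstm2 and 0.069 for Gstt2, and with the GC trend removed 0.056 for Gstm2, 0.43 for Gstp1, 0.23 for Gstt1 and 0.052 for Ugt2b5. Removing the length trend gave 0.27 for Gstp1 and 0.14 for Gstt1, RLE scaling 0.054 for Gstp1, and DESeq2 0.080 for Gstp1 and 0.063 for Sult5a1. DESeq2 gave no adjusted p for Ugt2b37 and Ugt2b5.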

How the results depend on the processing

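Of 130 calls of members over the 5 comparisons, none changed sign in 2294 recomputed values, and 159 of those values no longer passed. Of 80 results that did not pass, 73 recomputed values passed and 54 changed sign without passing. The one count of called members that moved by over 1.5 times was inhibitor against vehicle in WT cells with a 2-fold minimum, at 13 in place of 22, which follows from the added condition. Leaving out each library in turn gave 32 to 35 called members for ADPKD against WT with vehicle, 19 to 25 for the inhibitor in ADPKD cells, 16 to 24 in WT cells, 24 to 30 for ADPKD against WT with inhibitor and 15 to 19 for the interaction. With the replicate number as a block the counts were 34, 24, 23, 29 and 20, and with DESeq2 33, 23, 23, 29 and 18, in the same order. A filter at 5 CPM tested fewer members and called 25, 19, 23, 25 and 18. In all alternatives other than the 2-fold minimum, 25 of 34, 15 of 23, 14 of 22, 21 of 30 and 12 of 21 calls were tested and held. A further 6 calls with vehicle (Gstm6, Gstm7, Sult1b1, Sult4a1, Ugt2b37 and Ugt2b5) and 1 with inhibitor (Sult4a1) held where they were tested and were not tested at 5 CPM. Leaving out 1 vehicle-treated ADPKD library moved Sult1b1 between -8.73 and -3.03. Members with few counts in a group, such as Ugt1a9, Sult6b2, Ugt2b5 and Gstp2, are limited by depth.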
